A study of Homo sapiens with 12 samples.

Results

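The EZH2 and KMT2D single mutants of one lymphoma line were set against each other directly: OCI-Ly7 carrying the EZH2 Y646N gain-of-function change (the EZH2 mutant) against OCI-Ly7 labelled kmt2d-/- (the KMT2D mutant). The libraries, chosen by their labels, are 5 of the 12 samples in the series: replicates 1 and 2 of the EZH2 mutant and replicates 1 to 3 of the KMT2D mutant. EZH2 mutant replicate 3 was not analysed here. OCI-Ly7 is an established line of human diffuse large B-cell lymphoma, both mutants were derived from it by CRISPR, and no sample was treated. The unedited parent (wild type) and a line with both changes (kmt2d-/- with EZH2 Y646N, the double mutant), with 3 libraries each, give levels to read the difference by. The labels do not say whether a mutant line is a single clone, so the mutation and the history of its line cannot be told apart. RNA was counted by MARS-seq, a method that tags and sequences the 3′ ends of transcripts.

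EZH2 is the catalytic subunit of Polycomb repressive complex 2 (PRC2), which methylates lysine 27 of histone H3 and keeps genes silent. In germinal centre B cells it holds back cell cycle inhibitors and differentiation genes, and the lymphoma mutations at this tyrosine raise trimethylation. KMT2D methylates lysine 4 of histone H3 at enhancers and helps to keep them active. Both genes are often mutated in lymphomas of germinal centre origin.

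The EZH2 mutant libraries held 1118710 and 2183775 counts, and the KMT2D mutant libraries 3107871, 1392983 and 2463619. All 6 B-cell markers were counted in both lines, with a sum of 8012 to 10442 CPM (counts per 1e6 counts of the library) in the EZH2 mutant and 5752 to 6955 CPM in the KMT2D mutant. By the test below, CD79A and CD79B were higher in the EZH2 mutant and the other 4 were not called. The first principal component of these libraries held 76.4% of their variance and placed the EZH2 mutant at -71.8 and -40 and the KMT2D mutant at 32.6 to 39.8. Log2 CPM correlated across genes at 0.96 between the EZH2 mutant libraries and at 0.97 to 0.983 among the KMT2D mutant libraries, against 0.874 to 0.91 between the lines.

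Of 8813 genes with enough counts, 4040 (45.8%) differed between the lines by the quasi-likelihood test of edgeR at an adjusted p under 0.05. In the EZH2 mutant 2066 (23.4%) were higher and 1974 (22.4%) lower. Here and below, rises and falls are those of the EZH2 mutant relative to the KMT2D mutant unless wild type is named. At least 2-fold differences were found for 817 higher genes (9.27%) and 1442 lower genes (16.4%). The libraries of the lines did not overlap for 3982 of the called genes, or 98.6%, and for 65.8% of all tested genes. Set against wild type, with shared wild-type libraries, 32.3% of genes were called in the EZH2 mutant and 7.66% in the KMT2D mutant. The median log2 fold change was -0.05. Upper-quartile scaling moved it to -0.25 and gave 1486 higher and 2602 lower genes.

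Direction went with abundance. Among the 2937 genes with the lowest mean level (up to 14.2 CPM), 212 were higher and 843 lower in the EZH2 mutant, with a median log2 fold change of -0.66. Among the 2938 genes of middle level the counts were 581 and 698, and among the 2938 most abundant genes 1273 and 433, with medians of -0.06 and 0.31. With trends of GC content and abundance removed together, 3451 genes were called, 1845 higher and 1606 lower, with a median of 0.01. The part of abundance alone in the single differences was not tested. Neither EZH2 mutant library had a count for 40 tested genes, 38 of them called lower, while 0 tested genes lacked counts in all KMT2D mutant libraries. The EZH2 mutant has fewer libraries and fewer counts in all, so a gene without a count is likelier there. Such genes pass the filter only through their counts in other lines.

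**Figure D1:**
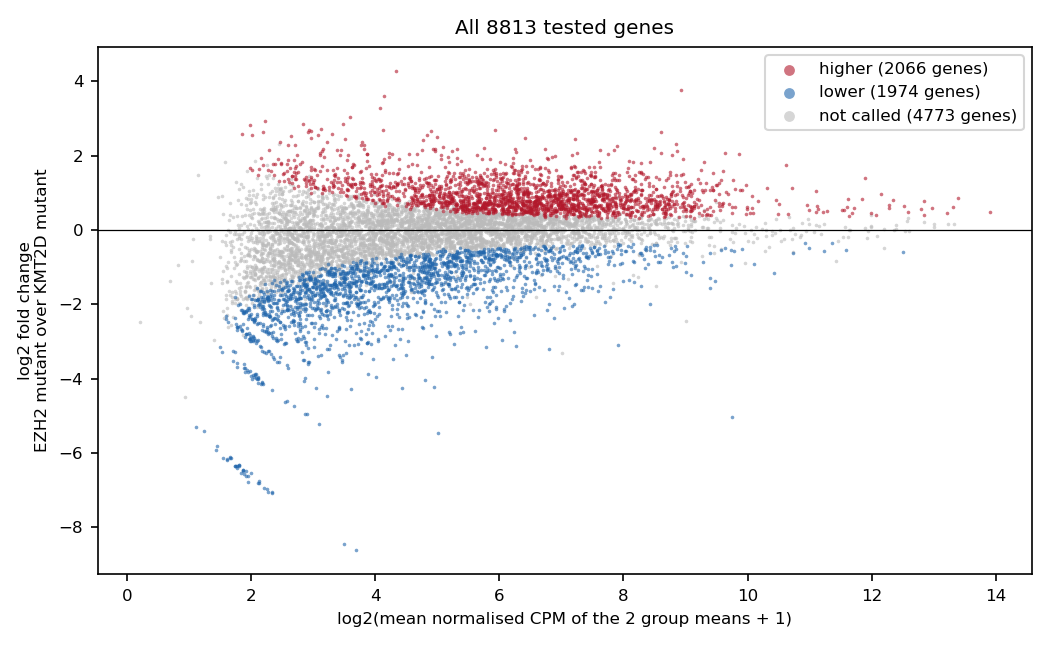
Log2 fold change of each of the 8813 tested genes, EZH2 mutant over KMT2D mutant, against mean level as log2(CPM + 1). Red points are the 2066 genes called higher, blue points the 1974 called lower and grey points the rest. Blue points are more frequent at low levels and red ones at high levels, and the lowest points are genes with no count in the EZH2 mutant, whose fitted values depend on the prior count.

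Neither targeted gene was called. EZH2 was at 54.3 and 75 normalised CPM in the EZH2 mutant, against 64.6, 65.8 and 65.1 CPM in the KMT2D mutant (log2 0.02, SE 0.17, edgeR adjusted p = 0.94). KMT2D was at 19.5 and 41.2 CPM in the EZH2 mutant, against 41.1, 40.9 and 34.5 CPM in the KMT2D mutant (log2 -0.26, SE 0.32, edgeR adjusted p = 0.53). For both genes the groups overlapped. A tag count at the 3′ end reads neither a changed base nor a frameshift upstream, so these values do not check the genotypes.

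The genes with the largest rises in the EZH2 mutant were led by FCGR2B, the inhibitory Fc receptor of B cells, and HSPA8, a constitutive chaperone of the HSP70 family. FCGR2B was at 34.8 and 39.2 CPM in the EZH2 mutant, against 2.44, 0 and 2.3 CPM in the KMT2D mutant (log2 4.28, SE 0.40, edgeR adjusted p = 1.6e-07). Wild type averaged 6.37 ± 1.13 CPM (SD, n = 3), which lies between the mutants. FCGR2A and FCGR2C are close copies of FCGR2B, so its count is uncertain. HSPA8 was at 569 and 1250 CPM in the EZH2 mutant, against 88.3, 41.6 and 66.6 CPM in the KMT2D mutant (log2 3.77, SE 0.64, edgeR adjusted p = 0.0025). The EZH2 mutant libraries differed more than 2-fold from each other for HSPA8, whose log2 fold change was 3.08 without replicate 2, and processed pseudogenes make its count uncertain.

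The largest falls were led by a pair without a count in either EZH2 mutant library. EVA1B, a membrane protein gene, was at 0 and 0 CPM in the EZH2 mutant, against 20.4, 28.9 and 22.6 CPM in the KMT2D mutant. S100A10, the partner of annexin A2, was at 0 and 0 CPM in the EZH2 mutant, against 24.7, 17.5 and 19.5 CPM in the KMT2D mutant. With 3 counts over the group in place of 0, EVA1B was at least 22.8-fold lower and S100A10 at least 21.3-fold lower, bounds that cover counting error only (edgeR adjusted p = 1.3e-06 and 4.3e-06). Both were also low in the double mutant, where EVA1B averaged 0.61 ± 0.133 CPM (SD, n = 3) and S100A10 had no counts. Wild type averaged 5.04 ± 2.5 and 1.28 ± 0.679 CPM (SD, n = 3), for S100A10 near the level of 3 counts per library. In the KMT2D mutant both were above wild type, EVA1B at log2 2.30 and S100A10 at log2 3.88 (edgeR adjusted p = 0.00017 and 2.4e-05). Both genes passed the filter for counts only through the KMT2D mutant, the line where they are high. Their p-values are therefore a description and no independent support.

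The promoter windows of these 4 genes are shown because the genes mark the ends of the comparison. The sequences are from RefSeq on GRCh38.p14, cover 250 bases before to 50 after the gene start, and have each CG dinucleotide, the site of DNA methylation, in capitals. The windows lie at chr1:161646993-161647292 (plus strand) for FCGR2B, chr11:123062087-123062386 (minus strand) for HSPA8, chr1:36323596-36323895 (minus strand) for EVA1B and chr1:151993810-151994109 (minus strand) for S100A10.
FCGR2B: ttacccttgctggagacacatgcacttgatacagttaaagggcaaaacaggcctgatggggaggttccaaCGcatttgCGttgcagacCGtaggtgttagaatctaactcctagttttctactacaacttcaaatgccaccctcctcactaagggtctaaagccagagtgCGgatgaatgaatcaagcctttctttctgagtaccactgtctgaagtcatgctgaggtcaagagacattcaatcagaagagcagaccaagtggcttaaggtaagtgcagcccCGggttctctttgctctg
HSPA8: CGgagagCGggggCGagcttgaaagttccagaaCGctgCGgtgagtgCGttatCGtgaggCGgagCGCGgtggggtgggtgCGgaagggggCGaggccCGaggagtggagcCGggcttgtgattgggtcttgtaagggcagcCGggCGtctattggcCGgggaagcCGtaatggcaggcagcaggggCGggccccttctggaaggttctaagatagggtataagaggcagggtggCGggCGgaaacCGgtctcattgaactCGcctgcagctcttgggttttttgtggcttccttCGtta
EVA1B: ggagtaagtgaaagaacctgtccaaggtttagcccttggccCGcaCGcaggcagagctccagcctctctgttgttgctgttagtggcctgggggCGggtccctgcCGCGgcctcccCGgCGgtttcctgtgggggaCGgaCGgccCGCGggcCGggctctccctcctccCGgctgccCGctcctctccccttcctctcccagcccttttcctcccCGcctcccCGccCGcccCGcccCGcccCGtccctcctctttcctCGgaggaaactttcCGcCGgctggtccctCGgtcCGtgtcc
S100A10: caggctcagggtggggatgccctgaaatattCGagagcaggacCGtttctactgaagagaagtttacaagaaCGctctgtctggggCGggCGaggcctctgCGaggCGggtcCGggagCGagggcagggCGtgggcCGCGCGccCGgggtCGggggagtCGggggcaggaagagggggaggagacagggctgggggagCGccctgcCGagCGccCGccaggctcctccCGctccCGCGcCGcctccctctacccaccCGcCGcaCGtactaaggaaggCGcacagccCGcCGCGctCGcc
FCGR2B has 5 CG in this window, HSPA8 24, EVA1B 25 and S100A10 32. At least 1 CG was found for 99.7% of the 7007 tested genes with a window, with a median of 27. The median was 26 both for the 663 genes at least 2-fold higher and for the 1119 at least 2-fold lower in the EZH2 mutant.

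Further receptors and signalling genes were higher in the EZH2 mutant. GPER1, a membrane receptor for estrogen, was at 709 and 633 CPM in the EZH2 mutant, against 96.6, 123 and 104 CPM in the KMT2D mutant (log2 2.64, SE 0.14, edgeR adjusted p = 2.7e-10). CDKN1A, which encodes the cyclin-dependent kinase inhibitor p21, was at 48.1 and 56.6 CPM in the EZH2 mutant, against 8.22, 8.06 and 11.1 CPM in the KMT2D mutant (log2 2.52, SE 0.23). RHOBTB2, an atypical GTPase gene, was at 109 and 99.3 CPM in the EZH2 mutant, against 15.8, 16.1 and 15.7 CPM in the KMT2D mutant (log2 2.7, SE 0.21). In each of these the lowest EZH2 mutant library lay far above the highest KMT2D mutant library. The rule that named genes by the size of their difference required libraries without overlap. PLCH2, a phospholipase C, rose by log2 2.56, CEND1, known from neurons leaving the cell cycle, by 2.49, MCOLN1, a cation channel of lysosomes, by 2.7, and HSPBP1, a cofactor of HSP70 whose gene lies on the long arm of chromosome 19, by 2.45. CD3EAP, a subunit of RNA polymerase I from the same arm (log2 3.28), the antisense gene VPS9D1-AS1 (log2 2.66) and the small nucleolar RNA SNORA50C (log2 3.60) overlap other genes, and without a stated strand their reads cannot be told apart from those of their neighbours.

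Immunoglobulin-like genes were among the largest falls. IGLL5, a lambda-like light chain gene, was at 59.4 and 44.2 CPM in the EZH2 mutant, against 1621, 1687 and 1695 CPM in the KMT2D mutant (log2 -5.04, SE 0.23, edgeR adjusted p = 5.2e-11). Wild type averaged 792 ± 93 CPM (SD, n = 3), again between the mutants. IGLL5 shares sequence with the lambda constant genes, so its count is uncertain. VPREB1, a surrogate light chain gene of developing B cells, was at 2.05 and 1.99 CPM in the EZH2 mutant, against 42.6, 32.2 and 42.5 CPM in the KMT2D mutant (log2 -4.26, SE 0.45). VPREB1 rested on 6 counts in the EZH2 mutant.

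Channel and vesicle genes fell as well. HVCN1, the voltage-gated proton channel of B cells, was at 2.05 and 3.48 CPM in the EZH2 mutant, against 53.6, 57.7 and 60.5 CPM in the KMT2D mutant (log2 -4.23, SE 0.33). RAB37, a small GTPase of secretory vesicles, was at 4.1 and 2.48 CPM in the EZH2 mutant, against 51.2, 52.4 and 48.2 CPM in the KMT2D mutant (log2 -4.03, SE 0.39). PTPRVP, a pseudogene of a receptor phosphatase, was at 1.02 and 1.49 CPM in the EZH2 mutant, against 60.9, 65.8 and 57.8 CPM in the KMT2D mutant (log2 -5.46, SE 0.42). All 3 were within a narrow range in the KMT2D mutant and nearly uncounted in the EZH2 mutant. There HVCN1 and RAB37 rested on 9 counts each and PTPRVP on 4. RAB26 (log2 -3.96), the muscle gene TRIM54 (log2 -3.88), the protein kinase A subunit PRKAR2B (log2 -3.55) and SCOC (log2 -3.49) rested on 5 counts each in the EZH2 mutant. Leaving out EZH2 mutant replicate 2 moved RAB26 to -2.73 and left 1 count for TRIM54 and 0 for PRKAR2B and SCOC. Leaving out its replicate 1 left 1 count for RAB26 and moved PRKAR2B to -2.94 and SCOC to -2.88. JSRP1, a gene of the muscle sarcoplasmic reticulum, had 3 counts in the EZH2 mutant against 149 in the KMT2D mutant and was 20.1-fold lower (95% interval 6.75 to 98.7, counting error only).

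**Figure D2:**
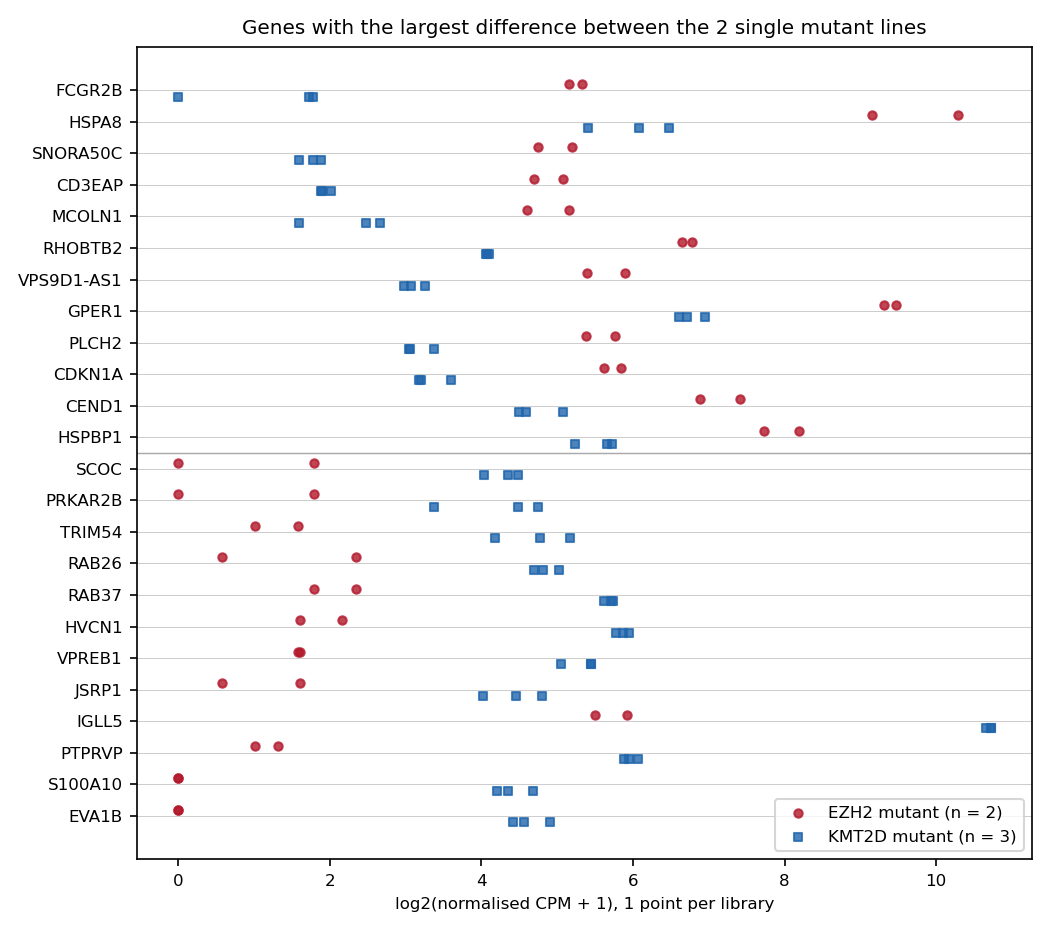
Level of the 24 genes with the largest differences as log2(normalised CPM + 1), 1 point per library, with the EZH2 mutant as red circles and the KMT2D mutant as blue squares. The points of the lines are apart in every row because the genes were picked for libraries that do not overlap. EVA1B and S100A10 are at 0 in both EZH2 mutant libraries.

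Of the 22 of these genes with counts in both lines, 21 had opposite signs in the mutants when each was set against wild type, and 13 were called in both. FCGR2B was at log2 2.53 in the EZH2 mutant and -1.75 in the KMT2D mutant relative to wild type. RHOBTB2 was at 1.44 in the EZH2 mutant and -1.27 in the KMT2D mutant, and IGLL5 at -3.96 and 1.07 in that order. VPREB1 was at -1.46 in the EZH2 mutant (not called, edgeR adjusted p = 0.053) and 2.80 in the KMT2D mutant. The EZH2 mutant alone was called for 8 genes, among them HSPA8, at 3.47 in the EZH2 mutant and -0.29 in the KMT2D mutant, and CDKN1A, at 1.96 and -0.55 in that order. Both contrasts share the wild-type libraries and the genes were picked for a large difference between the mutants, so these values are a description.

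**Figure D3:**
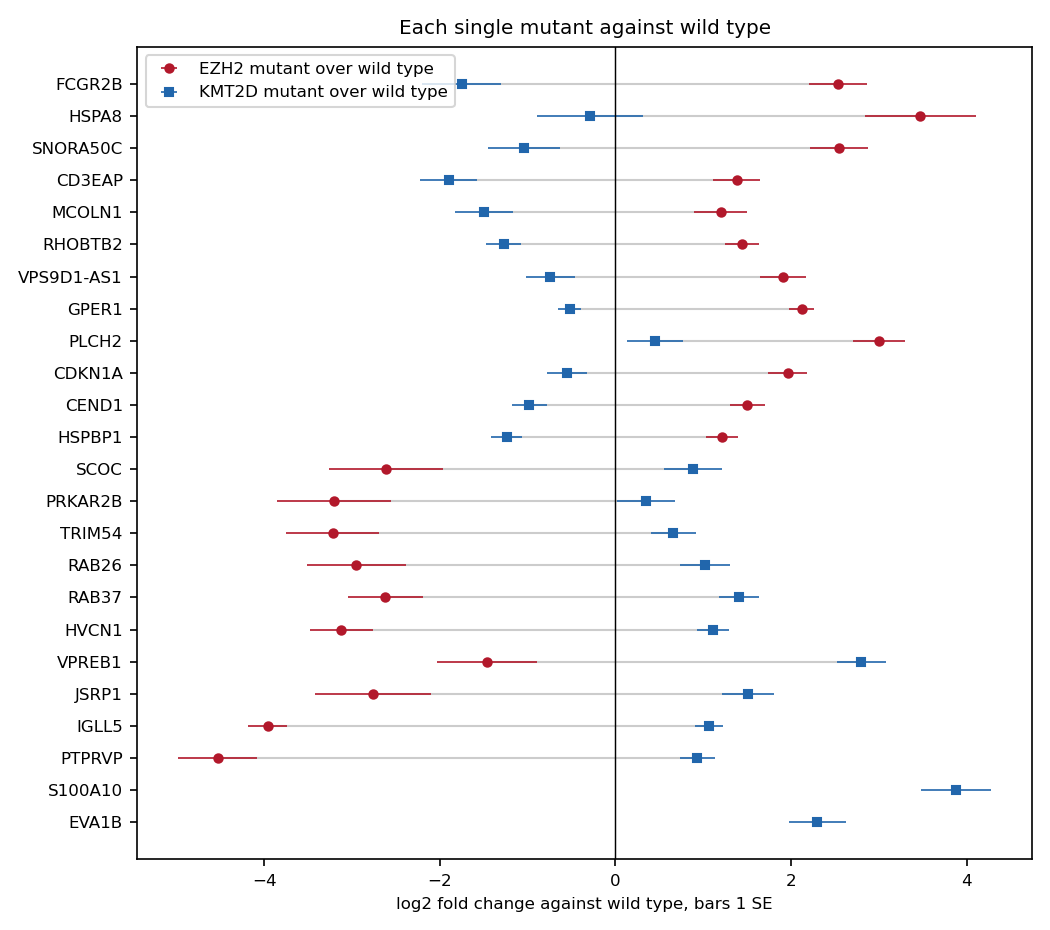
Log2 fold change of the same 24 genes against wild type, with the EZH2 mutant as red circles, the KMT2D mutant as blue squares and bars of 1 SE. Most pairs lie on both sides of 0, such as FCGR2B at 2.53 and -1.75, and no EZH2 mutant value is drawn for EVA1B and S100A10, which have no count there.

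Genes were next read by function, beside the 23.4% higher and 22.4% lower of all tested genes. The lists were not matched to that background by level. Among the 2938 most abundant genes, 1273 were higher and 433 lower, so a list of abundant genes may lean to higher for that reason, which was not tested. Of 33 tested MYC target and ribosome biogenesis genes, 23 were higher in the EZH2 mutant, 0 lower and 10 not called, with a median log2 fold change of 1.35. Upper-quartile scaling gave 3 lower, and 2 were lower without EZH2 mutant replicate 2. SRM, the spermidine synthase, was at 1391 and 1184 CPM in the EZH2 mutant, against 276, 362 and 285 CPM in the KMT2D mutant (log2 2.07). ODC1, the first enzyme of polyamine synthesis, rose by log2 1.91, and the nucleolar genes MYBBP1A and NOP16 by 1.97 and 1.52. Relative to wild type the median of the list was 1.13 in the EZH2 mutant and -0.15 in the KMT2D mutant.

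Nuclear genes of oxidative phosphorylation and chaperone genes were also more often higher than lower. Of 50 oxidative phosphorylation genes, 31 were higher and 2 lower (median 0.61), and 20 were higher with GC and abundance trends removed. Without EZH2 mutant replicate 1, 0 were lower, and without KMT2D mutant replicate 3, 1. ATP5MC1, a subunit of the ATP synthase ring, was at 648 and 755 CPM in the EZH2 mutant, against 135, 187 and 201 CPM in the KMT2D mutant (log2 2.02). The complex I genes NDUFS6, NDUFS7 and NDUFA11 rose by log2 1.37, 1.18 and 1.21. Of 25 heat shock chaperone genes, 13 were higher and 1 lower (median 0.78), with the chaperonin genes CCT3 and HSPD1 at log2 1.21 and 0.97 and HSP90AB1 at 1.05. The gene that fell was the small heat shock protein HSPB1, at 917 and 770 CPM in the EZH2 mutant, against 1847, 1946 and 1879 CPM in the KMT2D mutant (log2 -1.17).

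Of 74 cytosolic ribosomal protein genes, 26 were higher and 8 lower in the EZH2 mutant, a called share of 45.9%, near that of all genes. RPS19 (log2 1.72), of the small subunit, lies on chromosome 19, and RPS2 (log2 0.86), also of the small subunit, on chromosome 16. Upper-quartile scaling left 12 higher, and leaving out EZH2 mutant replicate 2 or KMT2D mutant replicate 2 or 3 left 16, 17 and 17, while 3 were lower without EZH2 mutant replicate 1. Pseudogenes make the single counts uncertain.

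Cell cycle genes divided by phase. Of 40 tested G2 and M phase genes, 23 were lower in the EZH2 mutant, 0 higher and 17 not called (median -0.92), with 1 higher when EZH2 mutant replicate 2 or KMT2D mutant replicate 2 was left out. NUSAP1, a spindle protein, was at 66.6 and 91.3 CPM in the EZH2 mutant, against 229, 216 and 216 CPM in the KMT2D mutant (log2 -1.45). NEK2, a centrosome kinase, fell by 1.72 on the log2 scale, and the motor genes KIF20A and KIF11 were also lower (log2 -1.50 and -1.80). In these bulk samples fewer cells in a phase and less RNA per cell cannot be told apart. Of 41 genes of DNA replication and the S phase, 17 were higher and 5 lower (median 0.29). The flap endonuclease FEN1 rose by log2 1.08, the helicase genes CDC45 and MCM4 by 1.00 and 0.84, and POLD1, of DNA polymerase delta, by 1.40. POLD1 lies on the long arm of chromosome 19 and was at log2 0.30 (not called) in the EZH2 mutant and -1.09 in the KMT2D mutant relative to wild type. Upper-quartile scaling turned the S phase counts to 11 higher and 9 lower, and 11 were higher without KMT2D mutant replicate 3, while 2 were lower without EZH2 mutant replicate 1 and 3 without KMT2D mutant replicate 1. Relative to wild type the G2 and M median was -0.75 in the EZH2 mutant and 0.05 in the KMT2D mutant, and the S phase median 0.05 in the EZH2 mutant and -0.28 in the KMT2D mutant.

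**Figure D4:**
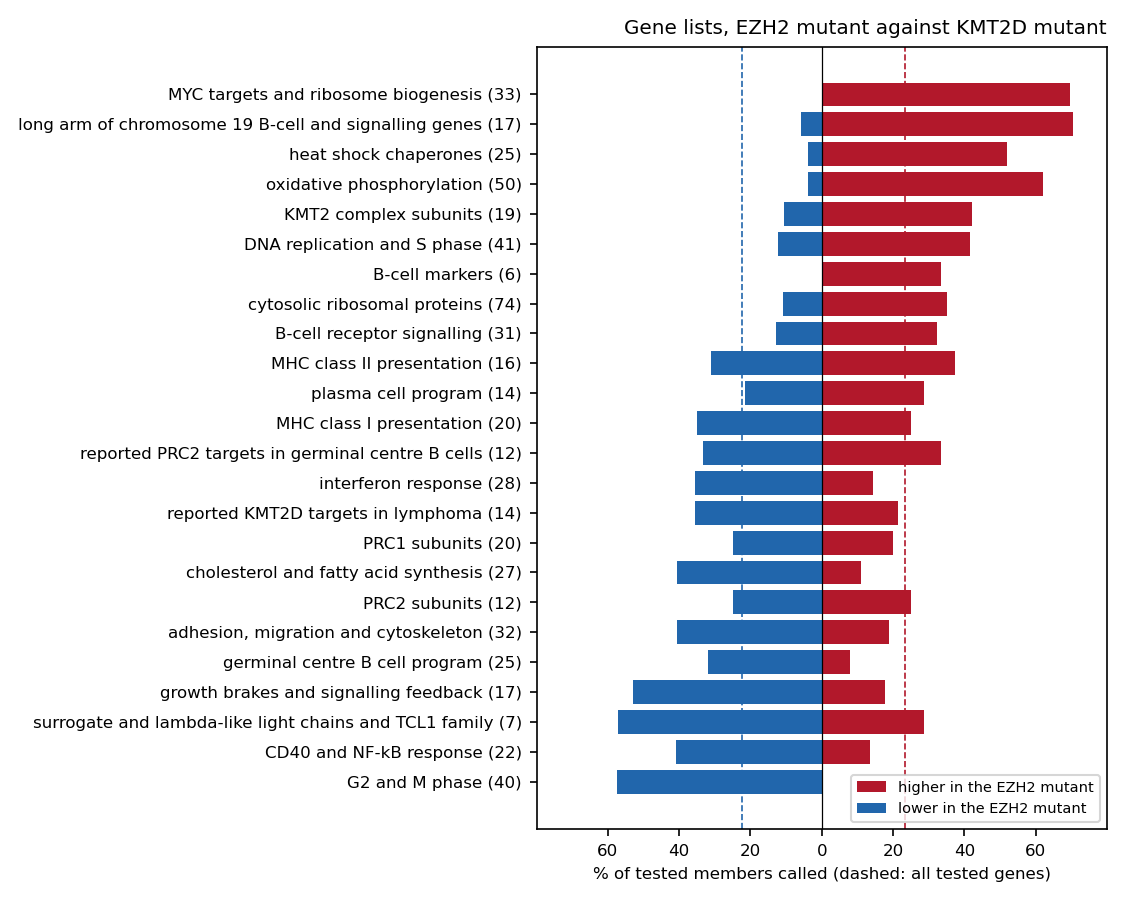
Percent of the tested members of each list (number in brackets) called higher (red, to the right) or lower (blue, to the left) in the EZH2 mutant than in the KMT2D mutant, in order of the median log2 fold change, for lists with 5 or more tested members. Dashed lines mark 23.4% and 22.4%, the shares over all tested genes. MYC targets and ribosome biogenesis reach 69.7% higher with none lower, and the G2 and M phase list 57.5% lower with none higher.

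B-cell state was read from the germinal centre and plasma cell lists. Of 25 tested genes of the germinal centre program, 8 were lower in the EZH2 mutant, 2 higher and 15 not called (median -0.44). HMCES, which shields abasic DNA sites, fell by 1.20 and the transcriptional repressor BCL6 by 1.17 on the log2 scale. The rises were the transcription factors POU2F2 (log2 1.62) and SPIB (log2 2.18), which lie on 19q, the long arm of chromosome 19. Of 14 plasma cell genes, 4 were higher and 3 lower, and those named act in the secretory pathway: PDIA4 (log2 1.56), SSR4 (log2 1.27), FKBP11 (log2 1.18) and, lower, DERL3 (log2 -0.76).

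Signalling genes were called in both directions. Of 31 genes of B-cell receptor signalling, 10 were higher and 4 lower (median 0.10), against 8 lower with upper-quartile scaling. CD79A, a signalling chain of the receptor, was at 6618 and 4436 CPM in the EZH2 mutant, against 1991, 2347 and 1942 CPM in the KMT2D mutant (log2 1.40). The phosphatase PTPN6 rose by log2 1.29 and the exchange factor VAV2 by 1.63. Of 22 genes of the response to CD40 and NF-kB, 9 were lower and 3 higher (median -0.56), with 5 lower without EZH2 mutant replicate 2. The activation marker CD83 fell by 1.40 and the lymphotoxin gene LTB by 0.87 on the log2 scale, while the inhibitor NFKBIE and the early response gene IER2 rose by log2 1.17 and 1.09.

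Among 7 tested light chain-like and TCL1 family genes, 4 were lower and 2 higher in the EZH2 mutant. The list also holds CD79B, a signalling chain of the B-cell receptor. IGLL5 and VPREB1, described above, and TCL1B and TCL6 were lower. TCL1B, of the AKT-binding TCL1 family, was at 102 and 100.3 CPM in the EZH2 mutant, against 154, 163 and 129 CPM in the KMT2D mutant (log2 -0.55), and its call was lost without EZH2 mutant replicate 2 (log2 -0.54, edgeR adjusted p = 0.052). It lay above wild type in both lines, at log2 1.23 in the EZH2 mutant and 1.78 in the KMT2D mutant. The higher genes were VPREB3, a relative of VPREB1 (log2 0.70), and CD79B (log2 0.53), and with GC and abundance trends removed 0 were higher. Without EZH2 mutant replicate 2, 2 were lower, and without EZH2 mutant replicate 1, KMT2D mutant replicate 1 or KMT2D mutant replicate 3, 1 was higher.

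Antigen presentation split within each class. Of 20 class I genes, 7 were lower and 5 higher. HLA-E was at 400.5 and 376 CPM in the EZH2 mutant, against 940, 1034 and 879.6 CPM in the KMT2D mutant (log2 -1.29), though class I genes share sequence. NLRC5, the activator of class I genes, fell by 0.73 on the log2 scale, while the proteasome activator PSME2 and the chaperone CALR rose by log2 1.68 and 1.76. Relative to wild type NLRC5 was at log2 -0.14 (not called) in the EZH2 mutant and 0.60 in the KMT2D mutant. Of 16 class II genes, 6 were higher and 5 lower. The lysosomal thiol reductase IFI30 was at 1653 and 1325 CPM in the EZH2 mutant, against 354, 405 and 324 CPM in the KMT2D mutant (log2 2.05), and the peptide-loading modulator HLA-DOB fell by 0.97. The count of higher class II genes was 2 with upper-quartile scaling and 2 with both trends removed, 3 when EZH2 mutant replicate 1 was left out, 3 when KMT2D mutant replicate 1 was and 2 when its replicate 3 was, and 3 were lower without EZH2 mutant replicate 2.

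Of 28 interferon response genes, 10 were lower and 4 higher in the EZH2 mutant (median -0.16), with 6 lower without EZH2 mutant replicate 1. The rises were the ubiquitin-like ISG15 (log2 1.09), the antiviral GTPase MX1 (log2 1.36), the nucleotide hydrolase SAMHD1 (log2 1.57) and the tethering factor BST2 (log2 0.72, and 0.23, not called, with both trends removed).

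Polycomb subunits were called at shares near those of all tested genes. Of 12 PRC2 genes, 3 were higher and 3 lower, with 1 lower without EZH2 mutant replicate 1. The histone-binding RBBP4 fell by 1.24 and RBBP7 by 1.67 on the log2 scale, with the RBBP7 call lost without EZH2 mutant replicate 1 (log2 -1.23, edgeR adjusted p = 0.073) and its log2 fold change at -2.49 without replicate 2, while the accessory subunit EPOP rose by log2 0.83. Of 20 PRC1 genes, 4 were higher and 5 lower, against 8 lower with upper-quartile scaling and 3 without EZH2 mutant replicate 2. PCGF5, a core subunit, was at 23.6 and 9.43 CPM in the EZH2 mutant, against 106, 118 and 117 CPM in the KMT2D mutant (log2 -2.94, and -3.54 or -2.27 without EZH2 mutant replicate 1 or 2). CBX8, a chromodomain subunit, was at 14.3 and 20.9 CPM in the EZH2 mutant, against 1.83, 4.03 and 2.3 CPM in the KMT2D mutant (log2 2.84). Of 19 KMT2 complex genes, 8 were higher and 2 lower, led by the methyltransferase SETD1A (log2 1.01) and the subunit WDR82 (log2 0.81). With upper-quartile scaling, DESeq2, a replicate block or both trends removed, and without EZH2 mutant replicate 2 or KMT2D mutant replicate 3, 5 were higher, and 1 was lower without EZH2 mutant replicate 1.

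Genes reported as targets of either enzyme did not go one way. Of 12 tested PRC2 targets, 4 were higher and 4 lower, with CDKN1A and FCGR2B higher and the death receptor TNFRSF21 (log2 -1.30) and the transcription factor IRF4 (log2 -0.55) lower. Of 14 tested KMT2D targets, 3 were higher and 5 lower, with the phosphatase DUSP2 at log2 1.04, BCL6 at -1.17, CD40 at -0.65 and the adaptor TRAF1 at -1.04. TNFRSF21 and TRAF1 lost their call without EZH2 mutant replicate 2 (edgeR adjusted p = 0.069 and 0.13), and IRF4 without EZH2 mutant replicate 1 (0.16). The higher PRC2 targets numbered 2 with upper-quartile scaling and without EZH2 mutant replicate 1, KMT2D mutant replicate 1 or KMT2D mutant replicate 3, and the higher KMT2D targets 1 with upper-quartile scaling and without EZH2 mutant replicate 2 or any 1 KMT2D mutant library. Leaving out either EZH2 mutant library left 2 lower PRC2 targets, and leaving out replicate 1 left 3 lower KMT2D targets.

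Of 27 genes of cholesterol and fatty acid synthesis, 11 were lower and 3 higher (median -0.21), with 7 lower without EZH2 mutant replicate 2. FDFT1, the squalene synthase, was at 125 and 195 CPM in the EZH2 mutant, against 478, 453 and 447 CPM in the KMT2D mutant (log2 -1.50). The sterol sensor INSIG1 fell by 1.95 on the log2 scale, the desaturase SCD by 1.47 and the citrate lyase ACLY by 1.07.

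Of 17 growth brake and feedback genes, 9 were lower and 3 higher (median -0.52). The rises were CDKN1A, DUSP2 and the mTOR inhibitor DDIT4 (log2 1.35), and TSC22D3, a glucocorticoid-induced gene, fell by 1.32 on the log2 scale. Leaving out EZH2 mutant replicate 1 or 2 left 5 and 4 lower. Of 32 adhesion, migration and cytoskeleton genes, 13 were lower and 6 higher (median -0.40). RHOH, a GTPase of blood cells, was at 96.3 and 95.3 CPM in the EZH2 mutant, against 246, 248 and 231 CPM in the KMT2D mutant (log2 -1.33), while the annexin ANXA6 and the actin-capping CAPG rose by log2 1.83 and 2.02. The integrin gene ITGB2 (log2 -2.86) fell too, and it was picked with its values in view.

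Genes were also read by place, with chromosome 19 split into its arms and the other chromosomes whole. The 376 tested genes on the long arm of chromosome 19 had a median log2 fold change of 0.77, with 202 higher and 31 lower in the EZH2 mutant, while the medians of the short arm and of the other chromosomes ran from -0.57 to 0.29. The arm held 4.27% of tested genes, 9.78% of the higher genes and 1.57% of the lower ones. Relative to wild type its median was 0.09 in the EZH2 mutant and -0.72 in the KMT2D mutant.

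The difference did not cover the whole arm. In blocks of 25 genes from the centromere, the first 3, up to DPF1, had medians of -0.14, -0.03 and -0.43. From SPINT2 outward the block medians were 0.68 to 1.40, and these 301 genes had a median of 0.96, with 185 higher and 16 lower. Of 17 B-cell and signalling genes of the arm, 12 were higher and 1 lower, among them the tetraspanin CD37 (log2 1.14), CD79A, POU2F2 and SPIB, and 3 were lower with upper-quartile scaling, 4 with GC and abundance trends removed and 2 without EZH2 mutant replicate 1. For these the place of a gene and its function cannot be told apart. Without the arm 3750 genes were called, 1791 higher and 1959 lower.

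**Figure D5:**
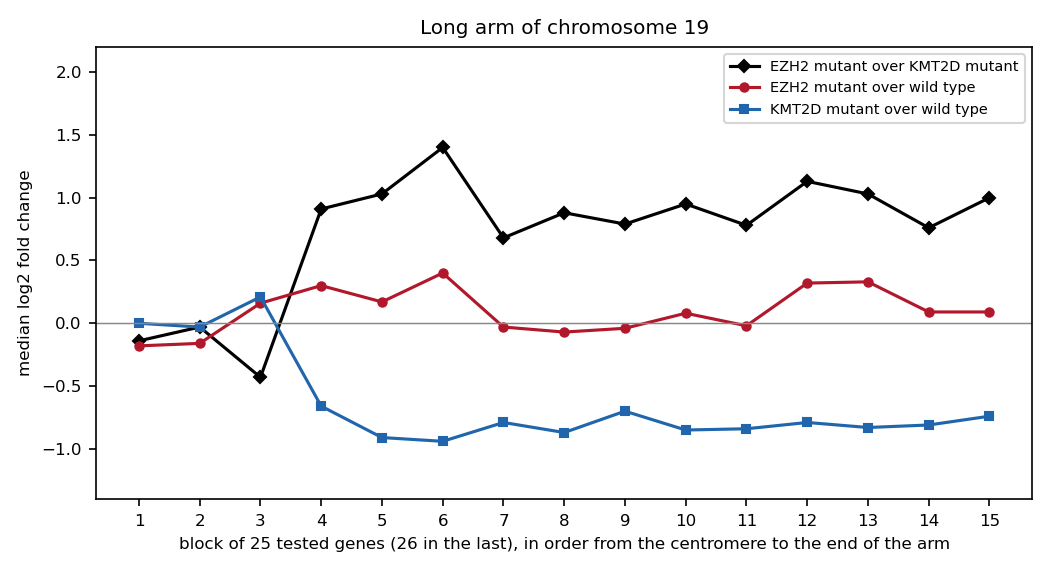
Median log2 fold change in blocks of 25 tested genes (26 in the last) along the long arm of chromosome 19, for EZH2 mutant over KMT2D mutant (black), EZH2 mutant over wild type (red) and KMT2D mutant over wild type (blue). From the block that starts at SPINT2 the black line lies between 0.68 and 1.40, the red line between -0.07 and 0.40 and the blue line between -0.94 and -0.66.

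Markers of other cell types were counted as well. The 14 T and NK cell markers summed to 195 to 201 CPM, before normalisation, in the EZH2 mutant, where 11 were at 0, and to 258 to 317 CPM in the KMT2D mutant, where 5 were at 0. LCK, a kinase of lymphocytes, held most of the sum, at 221 and 210.5 normalised CPM in the EZH2 mutant, against 218, 261 and 211 CPM in the KMT2D mutant (log2 -0.09, not called). The other T and NK markers counted in the EZH2 mutant were IL7R and PRF1, while CD3D, CD2, CD7, CD8A and KLRD1 had no count in either line. CD3E, CD3G, CD5, CD4, NKG7 and GNLY had counts in the KMT2D mutant and none in the EZH2 mutant, and none of them was among the tested genes. The 10 myeloid markers summed to 12.5 to 12.8 CPM in the EZH2 mutant and 11.5 to 16.2 CPM in the KMT2D mutant, and the 10 fibroblast and epithelial markers to 0.458 to 0.894 and 1.44 to 5.79 CPM in that order. The interleukin 7 receptor IL7R fell by 2.92 on the log2 scale, with -2.28 without EZH2 mutant replicate 1 and 0 counts left in that line without replicate 2, and the perforin gene PRF1 by 1.64, a call lost without EZH2 mutant replicate 1, EZH2 mutant replicate 2 or KMT2D mutant replicate 2 (edgeR adjusted p = 0.095, 0.12 and 0.055). The smooth muscle actin gene ACTA2 had no counts in the EZH2 mutant and was at least 4.32-fold lower. The part of these markers in the results above was not tested.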

How the data were processed

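The authors deposited a table of counts per gene for 11 of the 12 samples. The submitters' processing notes name STAR 2.7.0f, Trim Galore 0.6.0, cutadapt 1.15, FastQC and DESeq2. The deposited counts are called corrected with no reason given, and the counting program, build, annotation and strand are not given in the sources used here. Of 28278 genes, 13188 had no count in any library.

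Tests used edgeR 4.0.16 in R 4.3.3. The filter filterByExpr, at a minimum count of 10, kept 8813 genes. TMM factors and a robust quasi-likelihood fit, with a term for each line, used all 11 libraries, so that the lines share the estimate of spread. EZH2 mutant minus KMT2D mutant was then tested, with Benjamini-Hochberg adjustment over all genes and a threshold of 0.05. Fold changes are EZH2 mutant over KMT2D mutant unless another pair is named, and normalised CPM uses TMM library sizes. The labels do not say that replicates were separate cultures, and p-values then measure the spread between these samples alone, which may be technical. In the EZH2 mutant libraries and the others, 3 counts correspond to between 0.965 and 2.68 CPM.

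Named genes are EZH2 and KMT2D, the 12 largest fold changes each way among called genes with a mean of at least 10 CPM and no overlap of libraries, and up to 4 called members per list with the smallest adjusted p. Clone names and Y-linked genes were passed over, and a few genes that the rule names are not reported here. Members and the 27 lists (771 entries, all found) were chosen with earlier results of these data known. Groups with 1 to 3 counts were compared by summed counts with an exact Clopper-Pearson 95% interval, and groups with none by 3 counts in their place.

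Gene places (8650 tested genes) and GC content of the last 500 transcript bases (8634) came from GENCODE 29. Alternatives were other scalings (RLE, upper quartile), no filter, at least 10 counts in every library, DESeq2 1.42.0, limma-voom (limma 3.58.1), the compared groups alone, a replicate block, each library or the chromosome 19 long arm left out, thinning to equal depth, and splines of 5 degrees of freedom for GC and abundance. The code was tested on simulated data.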

Additional observations from a re-analysis of the deposited data

How the results depend on the processing

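Leaving out 1 library gave between 2872 (without EZH2 mutant replicate 1) and 3807 (without KMT2D mutant replicate 2) called genes, against 4040 with all libraries, with 1519 to 1942 higher and 1282 to 1865 lower. The strict filter, which tested 5749 genes, gave 2660 calls, 1299 of them higher, since fewer genes were tested. The remaining settings gave between 3420 (thinned to equal depth) and 4268 (no filter) calls. With upper-quartile scaling 36.4% of the calls were higher, against 51.1%.

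A replicate block gave 3589 calls, 1840 higher and 1749 lower. The labels give the lines a shared number and no shared batch. Deviations of same-numbered libraries correlated at -0.228 and -0.289, which says little about pairing, since the deviations of 2 EZH2 mutant libraries mirror each other.

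Of the 111 named genes, EZH2 and KMT2D alone changed sign, and neither was called in any setting. EZH2 was at -0.18 with upper-quartile scaling, -0.20 with the strict filter, -0.0055 with the block and -0.15 after thinning, and between -0.26 and 0.24 with 1 library left out. KMT2D was between -0.99 and 0.12 with 1 library left out. The cause was not tested. Removing GC and abundance trends lost 8 named calls: HLA-DPA1, BST2, PHF19, CXXC1, WDR5, VPREB3, PRF1 and CD79B. The EZH2 mutant has 2 libraries, and its replicate 1 is the shallowest, which limits genes near 3 counts.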

Other observations

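Families picked by symbol after the values were seen add groups not described above, and none was tested as a family. Of all tested genes 23.4% were higher and 22.4% lower. The families were not matched to these shares by level, and among the 2938 most abundant genes 1273 were higher and 433 lower. Of 69 genes of mitochondrial ribosomal proteins, 38 were higher in the EZH2 mutant than in the KMT2D mutant and 2 lower (median log2 0.50). MRPL12 averaged 912 CPM in the EZH2 mutant and 299 CPM in the KMT2D mutant (log2 1.60, SE 0.16). Of 38 proteasome subunit genes, 20 were higher and 2 lower (median 0.59). PSMC3, an ATPase of the proteasome cap, averaged 469.7 CPM in the EZH2 mutant and 164 CPM in the KMT2D mutant (log2 1.51, SE 0.15).

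Further families held more lower than higher genes. Of 25 genes of RAB GTPases, which direct vesicle traffic, 10 were lower and 5 higher (median -0.87). RAB27A averaged 4.78 CPM in the EZH2 mutant and 19.8 CPM in the KMT2D mutant (log2 -1.98, SE 0.34). Of 18 genes of cytosolic aminoacyl-tRNA synthetases, which charge tRNAs, 8 were lower and 3 higher (median -0.49). AARS1 averaged 274 CPM in the EZH2 mutant and 492 CPM in the KMT2D mutant (log2 -0.86, SE 0.16), while VARS1 averaged 377 CPM in the EZH2 mutant and 84.5 CPM in the KMT2D mutant (log2 2.15, SE 0.15).

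Zinc finger genes named ZNF were counted by place, a difference that was not tested. On the long arm of chromosome 19, 22 of 61 were higher and 4 lower (median 0.58), where 53.7% of all tested genes were higher. Elsewhere 19 of 170 were higher and 27 lower (median -0.07).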
